A study of Mus musculus with 9 samples.

Results

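The comparison described here set oocytes of old females against those of young adults: 3 climacteric arrays against 3 mature arrays, out of 9 arrays in the series. Probes other than controls entered it if their spots were well above background on at least 3 of these 6 arrays, a flag the scanner software gives each spot. That kept 29810 of 39429 probes, which stood for 18390 named genes and further unnamed transcripts, and 25029 of the kept probes were above background on all 6 arrays. All females were B6C3F1 hybrids (C57Bl/6J crossed with C3H/HeN) carrying no transgene or deletion in the labels. Mature females were 8 ± 1 weeks old and climacteric females 58 ± 10 weeks old in the sample labels, whereas 52 weeks is the age written in the growth protocol for climacteric mice. The 3 prepubertal arrays (females of 3 weeks) served to share the estimate of spread, and their levels are given for reference. Every female, of whichever age, had been primed with 10 IU of PMSG (pregnant mare serum gonadotropin) and then 10 IU of hCG (human chorionic gonadotropin) 48 h later. Ovulated oocytes at metaphase II were recovered from the oviduct 14 h after hCG and stripped of cumulus cells. Each array carried RNA of 1 pool of 20 oocytes, after 2 rounds of RNA amplification. The labels do not say that the pools came from different females, so the p-values below measure the spread between pools. The series design calls the oocytes zona-enclosed and the treatment protocol says that zonae were removed, which was not settled.

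A metaphase II oocyte is arrested in the second meiotic division until fertilization. Its chromosomes are condensed and transcription is silent, so the RNA in it is a store laid down during growth and used, adenylated or degraded in steps up to the embryo's own genome activation. Arrest is kept by cytostatic factor, to which the kinase MOS and the MAP kinase pathway belong, and cohesion laid down before birth holds the chromosomes together until division. Loss of cohesion, spindle errors and mitochondrial decline are the processes most often studied in oocytes of old females. In a pool of oocytes, fewer cells of a contaminating type and less RNA per cell cannot be told apart.

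Levels are log2 processed signals relative to the array's 75th percentile over all probes, so 0 is that percentile and a difference of 1 is a factor of 2. Differences are climacteric minus mature, with the standard error (SE) of the limma fit and a Benjamini-Hochberg adjusted p over all 29810 probes, called below 0.05. The array reads each transcript through a 60-base probe whose position the files give on mouse build mm9. A 30-base stretch is printed here for 6 of these probes: that of the only transcript called, and others picked by hand. All 6 were higher or lower on every climacteric array, and they are not the 6 of smallest p. Capitals mark the letters AATAAA, the canonical polyadenylation signal, where the stretch holds them.
Cyth4: ctcaggagcaagAATAAAagctcatgacgt
Ctss: cctgttgtctagtgttttctaataaccatt
Hdac6: caggtcagcatatttAATAAAgttggagtt
Prl8a2: ccatgacagtccattgctgagaacttgctt
Mos: gcggagtttctgggctgaactgaacattgc
H3f3a: gattccatccgttcactgtacttttctaac

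The Cyth4 and Hdac6 stretches hold the hexamer, and 13.0% of all tested probes held it on the strand printed in the array file. The Cyth4 probe lies at chr15:78452390-78452449 on the plus strand, the Ctss probe at chr3:95360245-95360304 (plus) and the Hdac6 probe at chrX:7507261-7507320 (minus). The Prl8a2 probe lies at chr13:27445965-27446024 (plus), the Mos probe at chr4:3798594-3798653 (minus) and the H3f3a probe at chr1:182732757-182732816 (minus). No exon annotation of mm9 was used here, so the exon or UTR that each probe reads is not given.

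The arrays of both ages read much the same transcripts. Climacteric arrays had 66.8% to 77.5% of probes above background by the scanner's flag, and mature arrays 70.9% to 76.8%. Pearson's r across the tested probes was 0.972 to 0.985 between mature arrays, 0.960 to 0.970 between climacteric arrays and 0.960 to 0.978 between arrays of different age. The least alike arrays were therefore as far apart within the climacteric group as between ages. Slides did not follow age alone. Mature pools 2 and 3 shared a slide with climacteric pools 1 and 2, mature pool 1 lay on the slide of the prepubertal pools, and climacteric pool 3 was on a slide of its own, so its slide and its pool cannot be told apart.

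One transcript passed the test. Cyth4, which encodes a cytohesin, a guanine nucleotide exchange factor for ARF GTPases found chiefly in blood cells, was higher in climacteric oocytes. It was the only call among 29810 probes (0.00335%). Its levels were -3.46, -2.89 and -2.31 in the climacteric pools and -7.59, -7.93 and -7.86 in the mature pools. The spots were well above background on all 3 climacteric arrays and on none of the mature or prepubertal arrays, so the mature level is only a limit. The probe passed the filter on dim signals only through the climacteric arrays, and its test sets their signal against values at background. Against the dimmest signals well above background on those arrays, Cyth4 was at least 6.70-fold higher, a bound that was not itself tested. The limma adjusted p of 0.00217 belongs to the fitted difference of 4.91 (SE 0.29). That difference sets a measured level against one at background and is no measured size. The call rested on the spread shared with the prepubertal arrays: the limma adjusted p was 0.0502 when only the 6 arrays were fitted. Within the slide that holds 2 pools of each age, a fit of fewer arrays, the difference was 4.72 (SE 0.27, limma adjusted p = 0.247). Cyth4 also missed the threshold in the deposited value table, at 1.19 with an adjusted p of 0.145. Of the 19 leukocyte markers described below, 5 lay higher on every climacteric array, as did 12.9% of all named genes. The summed levels of these markers overlapped, at 104 to 117 in mature and 99.5 to 138 in climacteric pools. Their part in the Cyth4 difference was not tested.

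Below that call, the comparison held many differences that did not pass adjustment. An unadjusted p under 0.05 was reached by 3823 probes (12.8%), of which 2440 were higher (8.19%) and 1383 lower (4.64%) in climacteric oocytes. All 3 climacteric arrays lay outside the range of the 3 mature arrays for 6013 probes (20.2%), with 4011 above it (13.5%) and 2002 below it (6.72%). The median difference over all tested probes was 0.09, and 58.9% of differences were positive. How many of the unadjusted differences were upward depended on the scaling: 1727 higher and 1679 lower with quantile normalization, 1660 and 1747 in the deposited value table, and 4521 and 1343 with normexp background correction. A difference between the ages of more than a factor of 2 was seen in 1545 probes (5.18%), 685 of them higher (2.3%) and 860 lower (2.88%).

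**Figure D1:**
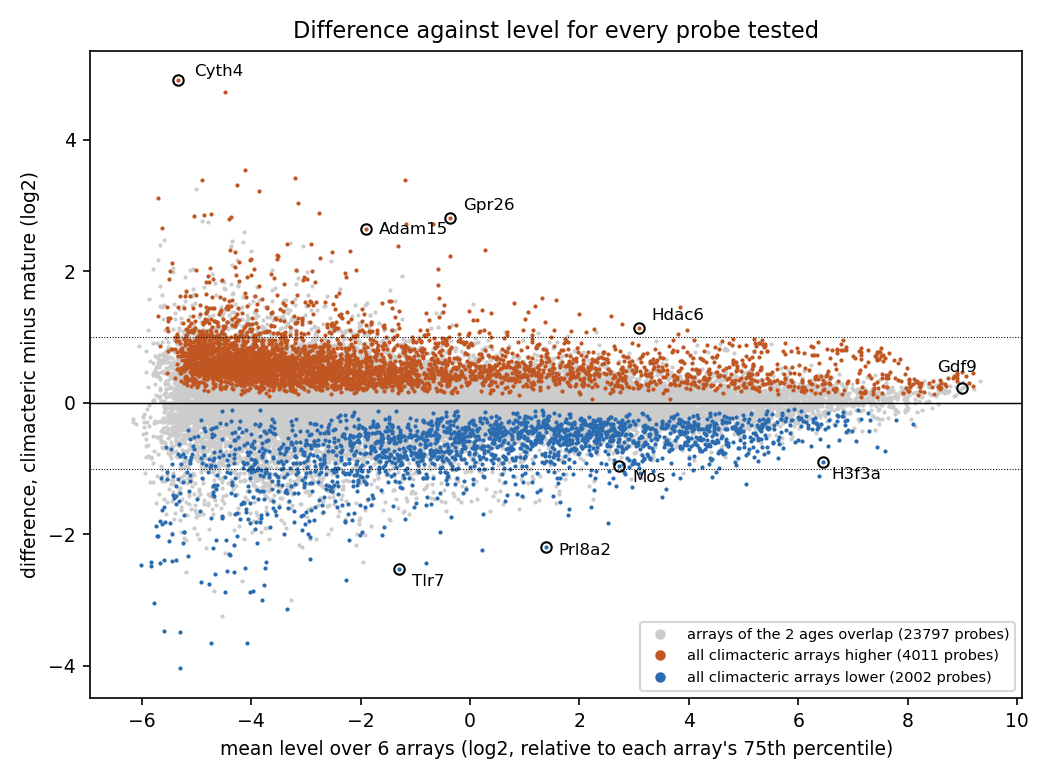
Difference between climacteric and mature oocytes (log2, vertical axis) against the mean level over the 6 arrays (log2 relative to the 75th percentile, horizontal axis), 1 point per tested probe, with named probes marked. Cyth4 lies at the dim end with a fitted difference of 4.91, beside C1s2 at 4.72, and the cloud widens toward dim probes.

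The direction of the differences moved with how bright a probe was and with its base composition. In the dimmest of 4 equal groups of probes, all climacteric arrays lay above the mature ones for 20.7% and below them for 3.52%, and the median difference was 0.25. In the brightest group these shares were 10.4% and 11.5%, and the median difference was -0.01. Bright transcripts were thus lower about as often as higher. By GC content, the lowest of 4 groups had 6.96% above and 11.0% below, and the highest 18.8% above and 3.48% below. The median GC content was 45% for the probes that were higher on every climacteric array, 40% for those lower on every one, and 43.3% for all tested. The slope differed between arrays: the median deviation from the array mean ran from -0.09 in the lowest to 0.17 in the highest GC group on climacteric array 3. It ran from 0.05 to -0.15 on mature array 1 and from 0.08 to -0.11 on mature array 3. The ends lay closer together on mature array 2 (0.009 and 0.002), climacteric array 1 (-0.05 and -0.01) and climacteric array 2 (0.07 and 0.10). The part of GC content and signal level in any single difference below was not tested.

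**Figure D2:**
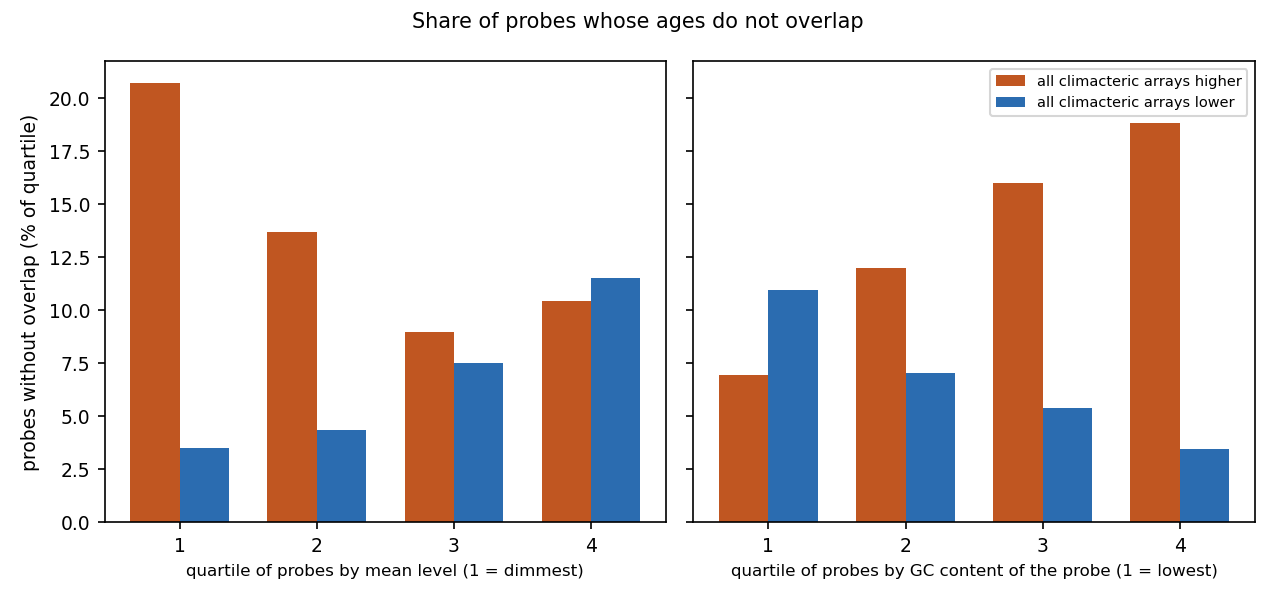
Percent of tested probes for which every climacteric array lay above (orange) or below (blue) every mature array, in 4 equal groups by mean level (left) and by GC content of the probe (right). The upward share falls from 20.7% in the dimmest group to 10.4% in the brightest and climbs from 6.96% to 18.8% with GC content.

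Among named genes measured above background on all 6 arrays, 194 (1.36%) lay higher on every climacteric array with an unadjusted p under 0.01, and 202 (1.41%) lay lower. Those with the largest differences are described in turn, and none passed adjustment. They were picked for their size, so no theme is read from them. Ctss, encoding cathepsin S, a lysosomal protease of antigen-presenting cells, had levels of -2.43, -0.91 and -0.79 in climacteric pools and -3.75, -3.36 and -3.91 in mature pools, a difference of 2.30 (SE 0.40, limma adjusted p = 0.199). Cd72, a B-cell coreceptor, had -0.55, -2.38 and -1.96 against -3.79, -3.57 and -4.16, a difference of 2.21 (SE 0.56, adjusted p = 0.266). A dimmer Cd72 probe was above background on all 3 climacteric arrays but only 1 mature array, so its size was not measured. The climacteric pools were thus above every mature pool for both genes, while the pool that was nearest to the mature ones was pool 1 for Ctss and pool 2 for Cd72.

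Adam15, a membrane-bound metalloprotease of the disintegrin family, had levels of -0.25, -0.42 and -1.09 in climacteric and -3.51, -3.86 and -2.30 in mature pools (difference 2.64, SE 0.52, limma adjusted p = 0.219). Mmp27, a matrix metalloproteinase, had -3.80, -2.46 and -2.46 against -5.13, -5.24 and -4.90 (2.19, SE 0.36, adjusted p = 0.199). Tspan1, a tetraspanin, had -1.11, -1.04 and -0.98 against -3.83, -3.64 and -2.58 (2.30, SE 0.39, adjusted p = 0.199), with nearly equal levels in the climacteric pools. Prepubertal oocytes lay near the mature ones in these 3 genes, with mean levels of -2.88 for Adam15, -4.61 for Mmp27 and -3.29 for Tspan1. Without climacteric pool 1, Mmp27 (2.63) and Ctss (2.82) passed the test, each with a limma adjusted p of 0.0168. That pool lay nearest to the mature ones for both genes, so leaving it out could only widen their differences. Neither gene passed in any other of the 21 alternatives. The sizes depended on the processing: over the alternatives Mmp27 ran from 0.78 to 2.63, Ctss from 1.38 to 2.82, Cd72 from 1.30 to 2.58, Adam15 from 1.75 to 3.10 and Tspan1 from 1.54 to 2.69, each lowest in the deposited value table.

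The other genes with large differences upward had mixed roles. Pik3c2b, a class II phosphoinositide 3-kinase, had levels of 0.05, 1.20 and 1.02 in climacteric and -1.40, -1.51 and -1.54 in mature pools (2.24, SE 0.33, limma adjusted p = 0.199), but its second probe differed by -0.08. Gpr26, an orphan G-protein-coupled receptor, had -0.24, 1.65 and 1.71 against -1.39, -2.17 and -1.73 (2.81, SE 0.59, adjusted p = 0.233). In Gpr26 and in Ntsr2, a neurotensin receptor (2.01, SE 0.40), climacteric pool 1 lay nearest to the mature pools, as in Ctss, Mmp27 and Pik3c2b. Crip1, a small LIM-domain protein, had 1.80, 2.29 and 2.21 against 0.88, 0.18 and 0.47 (1.59, SE 0.24, adjusted p = 0.199). The zinc-finger gene Zbtb48, whose product binds telomeric repeats, differed by 1.55 (SE 0.29), Zfp185 by 1.55 (SE 0.30) and Taf7l2 by 1.53 (SE 0.37). Over the alternatives Gpr26 ran from 2.46 to 3.44, Ntsr2 from 1.07 to 2.39, Zbtb48 from 0.84 to 1.67 and Taf7l2 from 0.91 to 1.74, while Crip1 stayed between 1.42 and 1.77.

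Among the genes with large differences downward, the smallest p-value was that of Prl8a2, a member of the placental prolactin family. Its levels were 0.23, -0.05 and 0.69 in climacteric pools and 2.69, 2.54 and 2.22 in mature pools. The difference was -2.19 (SE 0.24), 4.56-fold in linear terms, with a limma adjusted p of 0.102. Prepubertal pools stood at 3.05, 3.32 and 3.47, above the mature ones, so the 3 ages did not overlap and their order followed age. With normexp background correction Prl8a2 was the transcript called, at -2.20 and a limma adjusted p of 0.0165, and Cyth4 (1.87, adjusted p = 0.0882) was not.

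The genes with large differences downward also had mixed roles. Cpox, coproporphyrinogen oxidase of the heme pathway, had levels of -2.58, -3.47 and -3.71 in climacteric and -1.43, -1.43 and -0.65 in mature pools (-2.08, SE 0.35, limma adjusted p = 0.199). Lias, the mitochondrial lipoic acid synthase, had -2.24, -3.31 and -3.35 against -0.01, -1.16 and -1.82 (-1.97, SE 0.51, adjusted p = 0.266). Lipo3, of the lipase family, had -3.61, -3.02 and -2.43 against -1.21, -1.02 and -0.80 (-2.01, SE 0.29, adjusted p = 0.199). Cpox and Lias showed climacteric pool 1 nearest to the mature pools, and Lipo3 showed pool 3 there. Mettl5, which methylates ribosomal RNA, had -3.07, -3.23 and -3.27 against -0.86, -1.35 and -1.98 (-1.79, SE 0.29, adjusted p = 0.199), and 1 prepubertal array gave no value for it. Fndc5, the precursor of irisin, had -3.40, -2.95 and -1.21 against -0.53, -0.67 and -0.68 (-1.89, SE 0.51, adjusted p = 0.274). Over the alternatives Cpox ran from -2.42 to -1.31, Lias from -2.38 to -1.29, Mettl5 from -2.08 to -1.11 and Fndc5 from -2.55 to -1.43.

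The remaining genes with large differences downward are known chiefly from other tissues. Tlr7, the endosomal receptor for single-stranded RNA, had levels of -1.51, -3.08 and -3.08 in climacteric and -0.61, 0.24 and 0.30 in mature pools (-2.53, SE 0.60, limma adjusted p = 0.263). Casp14, a caspase of the epidermis, differed by -1.96 (SE 0.43), Wfdc13, a whey acidic protein family member, by -2.43 (SE 0.50) and Srpx2, a sushi-repeat protein, by -2.23 (SE 0.44). In Tlr7, Wfdc13 and Tas2r113, a bitter taste receptor (-1.76, SE 0.38), mature pool 1 was the lowest mature pool and the prepubertal mean lay between the ages. Pgbd5, a transposase-derived gene, differed by -1.69 (SE 0.36), with -1.31, -0.62 and 0.10 against 1.21, 0.84 and 1.20. Tlr7 ran from -3.05 to -1.92 over the alternatives.

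**Figure D3:**
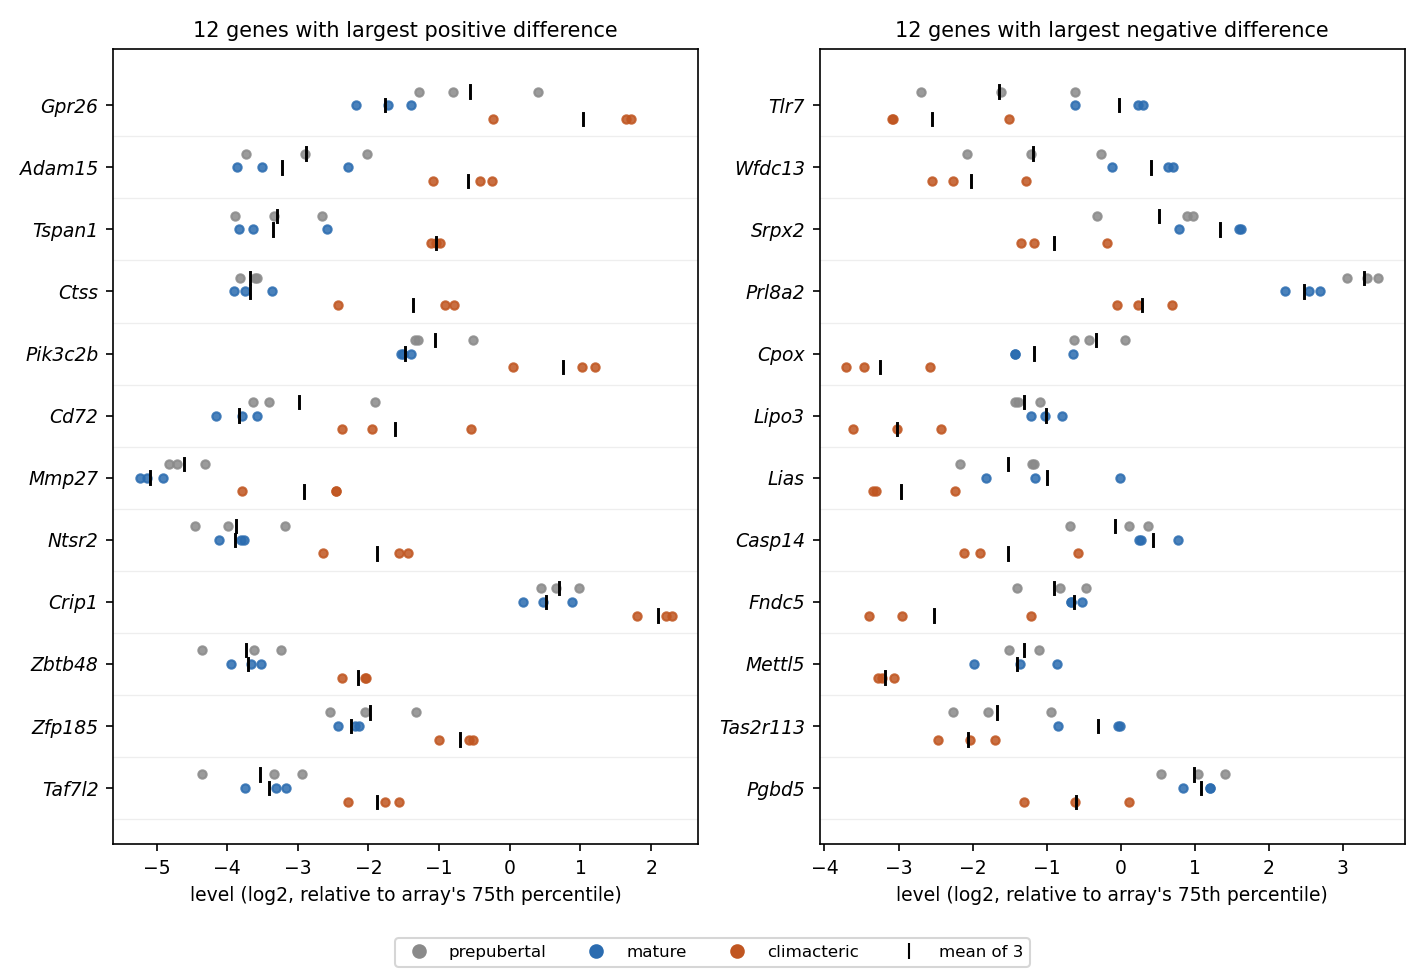
Level in each pool (log2 relative to the array's 75th percentile, horizontal axis) of the genes with the largest differences upward and downward, with prepubertal (grey), mature (blue) and climacteric (orange) pools as points and the mean of 3 as a bar. The orange and blue points do not overlap for these genes, which were chosen for that, and the grey points lie beyond the blue ones for Prl8a2 and Cpox.

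Transcripts above background in one age only were few. There were 20 probes above background on all climacteric and no mature arrays (0.0671%) and 87 with the reverse pattern (0.292%). The flag did not ask the same level of both ages. The dimmest signals well above background lay at -5.27, -5.45 and -4.79 on the climacteric arrays and at -5.60, -5.63 and -5.66 on the mature arrays. The part of these limits in the 2 counts was not tested. Besides Cyth4, the largest bound upward was that of C1s2, a gene of the complement C1s family, at least 11.1-fold higher, with levels of -1.20, -1.92 and -3.25 in climacteric pools and -7.29, -7.67 and -5.57 in mature pools. Barx1, a homeobox factor, was at least 2.45-fold higher and Fam76a at least 3.13-fold. Pwwp3b (at least 5.06-fold) and Atg4c, an autophagy protease (at least 4.02-fold), each owed their bound largely to climacteric pool 3, at -0.58 and -2.04 against -4.93 to -4.35 and -4.67 to -4.16 in the other pools. In the other direction stood Krt23, a keratin (at least 3.69-fold lower in climacteric oocytes), Aqp9, an aquaglyceroporin (2.47-fold), and Cers3, a ceramide synthase (1.98-fold). Zfp42, the pluripotency marker REX1 (at least 2.22-fold), Hpn (2.09-fold) and Zfp30 (2.26-fold) complete the 6 largest bounds, and mature and climacteric levels overlapped for Zfp42 and Hpn. Here too single pools stood out, with mature levels of -4.95, -5.08 and -1.79 for Zfp42, -2.17, -5.08 and -4.73 for Zfp30 and -2.46, -5.33 and -3.80 for Aqp9. Fitted differences of these dim probes were far smaller under other processing: C1s2 gave 1.54 in the deposited value table against 4.72, and Krt23 gave -0.98 with normexp against -4.04. None of these genes but Cyth4 passed the test.

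Gene groups were read from lists of known members, each gene by the probe with the highest mean level. No member of the 19 function lists was called, nor was any named gene but Cyth4 (0.00544%). The figures to set them against are those of all 18390 named genes: a median difference of 0.07, 57.8% positive, 12.9% higher and 6.77% lower on every climacteric array.

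Oocyte identity genes, the growth factors, zona proteins and transcription factors that mark the cell, were above background on all 3 mature arrays for 26 of 26 tested and on all 3 climacteric arrays for 25. Their summed linear signal, in units of the array's 75th percentile, was 2323 to 2559 in mature and 2271 to 2705 in climacteric pools. The label of the cells was thus borne out by their markers at both ages. Differences were positive for 9 of 26, with a median of -0.14, 2 members higher and 3 lower without overlap. Gdf9, the oocyte growth factor that acts on granulosa cells, stood at 8.91, 9.06 and 9.33 in climacteric and 8.88, 8.92 and 8.85 in mature pools (0.22, SE 0.17, limma adjusted p = 0.598), and its sign turned with quantile normalization (-0.090). Bmp15, its partner, differed by -0.42 (SE 0.20). The zona genes Zp1 and Zp3 differed by -0.40 (SE 0.26) and -0.46 (SE 0.30), and H1f8, the oocyte linker histone, by 0.33 (SE 0.23). None of these differences reached an unadjusted limma p under 0.05. Rspo2, also of this list, had 3.50, 3.94 and 3.78 in climacteric and 3.96, 4.11 and 4.48 in mature pools (-0.45, SE 0.19, limma adjusted p = 0.382). Foxo3, the factor that keeps primordial follicles dormant, had 1.32, 1.13 and 1.44 against 0.79, 0.80 and 0.63 (0.56, SE 0.16, adjusted p = 0.279), and a second probe gave 0.27.

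Maternal-effect genes, whose products the embryo needs from the egg, were positive for 17 of 35 with a median of -0.02, 3 higher and 3 lower without overlap. Kdm1b, the histone demethylase required to set maternal imprints, had levels of 5.26, 5.09 and 5.36 in climacteric and 5.62, 5.53 and 5.69 in mature pools (-0.38, SE 0.15, limma adjusted p = 0.355). Prepubertal pools averaged 6.39, so Kdm1b followed the order of age as Prl8a2 did. Ube2a, a ubiquitin-conjugating enzyme, differed by -0.61 (SE 0.17) and its second probe by -0.09.

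Of the meiotic cell cycle genes, 22 of 49 were positive, the median was -0.01, and 4 were higher and 5 lower without overlap. The one with the smallest p-value was Mos, the kinase of cytostatic factor. Its levels were 2.23, 2.18 and 2.35 in climacteric pools and 2.99, 3.13 and 3.50 in mature pools. The climacteric pools were close together and all lay below the mature ones, by -0.96 (SE 0.17, limma adjusted p = 0.202), with the prepubertal mean at 2.75 between them. Arpp19, an inhibitor of the phosphatase that opposes CDK1, had -0.56, -0.38 and -1.33 against -0.19, -0.14 and 0.24 (-0.73, SE 0.26, adjusted p = 0.326).

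Cohesin and condensin genes, which hold sister chromatids together and compact chromosomes, were positive for 15 of 32, with a median of -0.05, 3 higher and 5 lower without overlap. Of all named genes, 12.9% were higher and 6.77% lower in that way. The 5 lower members of the list included both SMC subunits of condensin. They were picked from the list for small p-values, so no theme is read from the pair. Smc4 had levels of 1.14, 1.20 and 1.01 in climacteric and 1.92, 1.72 and 1.58 in mature pools (-0.62, SE 0.15, limma adjusted p = 0.266). Smc2, its partner, had -2.03, -1.89 and -1.65 against -0.83, -1.39 and -1.02 (-0.77, SE 0.20, adjusted p = 0.266). Cdca5, sororin, which stabilises cohesin on chromatin, differed in the other direction by 0.51 (SE 0.20). The meiotic kleisin Rec8 differed by 0.09 (SE 0.16), and Sgo2a, the shugoshin that protects it at centromeres, by 0.35 (SE 0.18, adjusted p = 0.442). Smc1b, the meiotic cohesin SMC subunit, had -4.25, -0.76 and 0.50 in climacteric pools and -0.27, -0.55 and -0.47 in mature pools, so its difference of -1.07 (SE 1.00) came from climacteric pool 1, and without that pool it was 0.30. Spindle checkpoint and kinetochore genes were positive for 27 of 55, with a median of -0.01, 3 higher and 2 lower without overlap. Their smallest p-values belonged to Cenpo (0.44, SE 0.19), whose second probe gave -0.60, and Cenpk (-0.43, SE 0.18), whose second probe gave -0.55.

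Genes of sperm binding and egg activation, the response to the calcium waves of fertilization, were positive for 18 of 46, with a median of -0.09, 1 higher and 4 lower without overlap. Camk2g, the calcium- and calmodulin-dependent kinase that releases the egg from arrest, had levels of 3.53, 3.75 and 3.65 in climacteric and 4.40, 4.06 and 4.40 in mature pools (-0.64, SE 0.16, limma adjusted p = 0.266). Calm2, one of the calmodulin genes, had 4.37, 4.06 and 4.76 against 5.51, 5.09 and 5.42 (-0.94, SE 0.31, adjusted p = 0.305), and its second probe gave -0.88. Mos, Camk2g and Calm2 were thus lower in each climacteric pool, without a call for any of them. They were picked from their lists for small p-values, so no theme is read from them.

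Chromatin genes were mixed in direction. Of the DNA methylation and chromatin list, 47 of 74 were positive with a median of 0.07, and 6 were higher and 4 lower without overlap. Hdac6, a tubulin deacetylase, had levels of 3.86, 3.66 and 3.44 in climacteric and 2.86, 2.46 and 2.22 in mature pools (1.14, SE 0.23, limma adjusted p = 0.226). Its second probe gave 1.20 (SE 0.21), and prepubertal oocytes (mean 3.27) lay nearer to the climacteric ones. Dnmt1, the maintenance DNA methyltransferase, had 2.36, 3.15 and 3.42 against 3.68, 3.20 and 3.50 (-0.48, SE 0.32), with overlap between the ages. Histone genes were positive for 35 of 60, with a median of 0.04, 8 higher and 5 lower without overlap. H3f3a, encoding the replacement histone H3.3, had 5.98, 5.92 and 6.12 against 6.96, 6.74 and 7.01 (-0.90, SE 0.18, adjusted p = 0.226), and its second probe gave -0.76 (SE 0.19). In both Hdac6 and H3f3a the 2 probes therefore gave the same direction with no overlap of the ages.

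**Figure D4:**
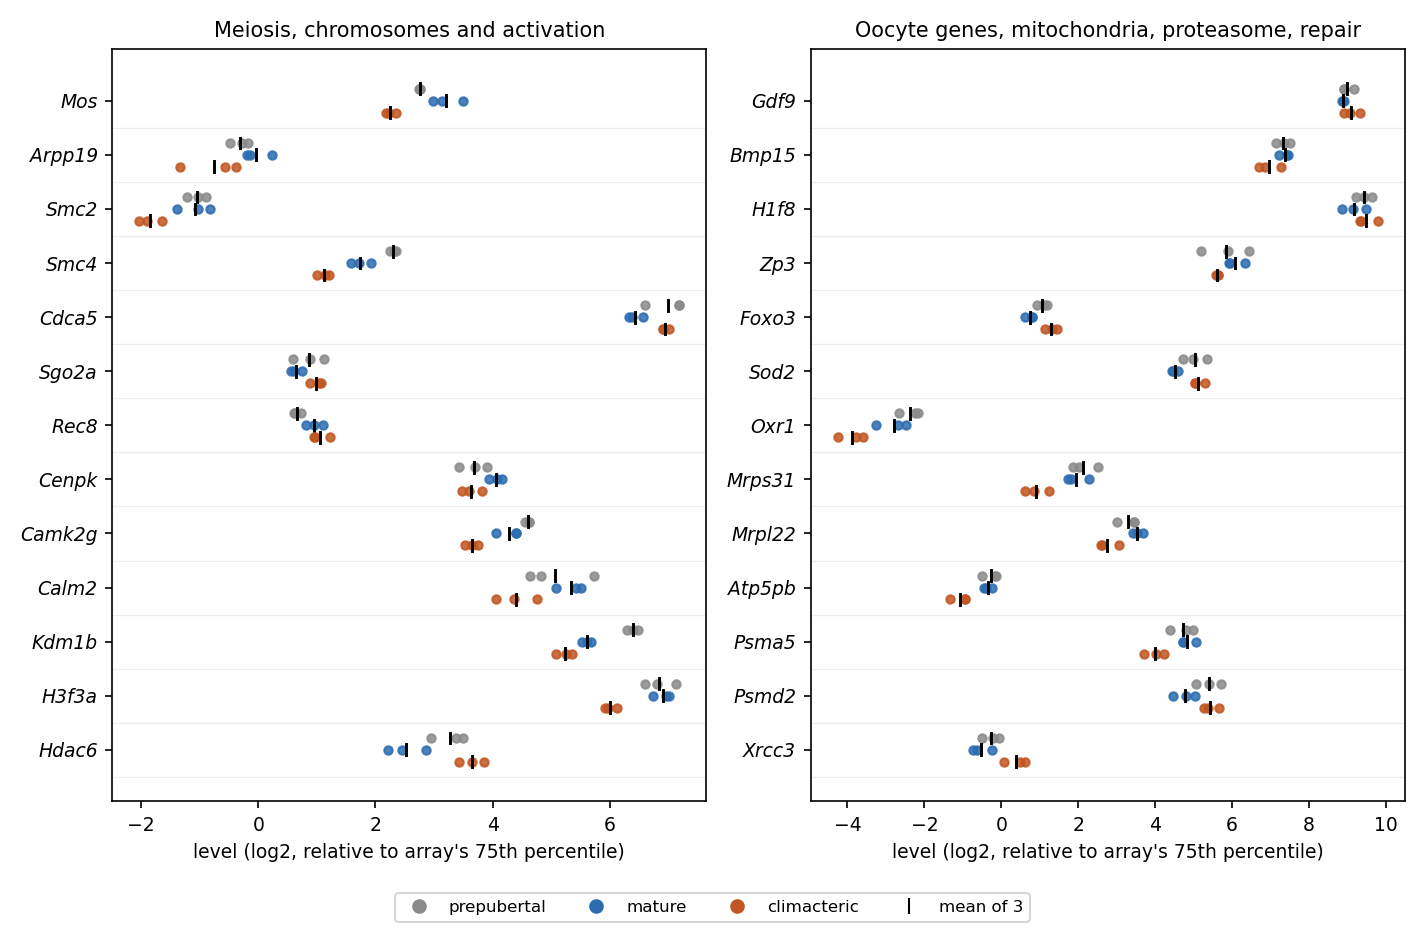
Level in each pool (log2 relative to the array's 75th percentile, horizontal axes) of genes of meiosis, chromosomes and activation (left) and of oocyte identity, mitochondria, proteasome and repair (right), with the mean of 3 pools as a bar. Climacteric pools (orange) of Mos lie at 2.18 to 2.35, below the mature pools (blue) at 2.99 to 3.50, while those of Hdac6 lie above, at 3.44 to 3.86 against 2.22 to 2.86.

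Oxidative phosphorylation genes, the nuclear subunits of the respiratory chain and ATP synthase, held the largest count on one side. Of 84 tested, 13 lay lower on every climacteric array and 3 lay higher, in a list that was among the longest. The share lower was 6.77% of all named genes but 11.5% in the brightest of 4 equal groups of probes. That group began at a level of 0.95, and the list's median level was 1.85 to 2.44 on the mature and climacteric arrays. The part of signal level in this count was not tested. Differences were positive for 37, and the median was -0.06, which turned to 0.08 within slide 2. The 13 came from complex I (Ndufc2, Ndufa4, Ndufs4, Ndufa6 and Ndufa1), complex III (Uqcr11), cytochrome c oxidase (Cox6c, Cox6a1, Cox6b1, Cox7a2 and Cox4i2) and ATP synthase (Atp5pb and Atp5c1), with differences between -1.26 for Uqcr11 and -0.25 for Cox4i2. These members were named after their values were seen, and for 9 of them the unadjusted p was above 0.05. Atp5pb, of the ATP synthase stalk, had levels of -0.94, -0.95 and -1.32 in climacteric and -0.39, -0.24 and -0.44 in mature pools (-0.72, SE 0.18, limma adjusted p = 0.266), and its second probe gave -0.68. Cox8b lay higher, by 0.78 (SE 0.23, adjusted p = 0.284), with 0.23 in the deposited value table.

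The ribosomes of the mitochondrion and of the cytosol had medians near 0. Mitochondrial ribosome genes were positive for 41 of 77, with a median of 0.02, 6 higher and 9 lower without overlap. Mrps31, a small-subunit protein, had levels of 0.86, 0.62 and 1.25 in climacteric and 2.28, 1.81 and 1.75 in mature pools (-1.04, SE 0.26, limma adjusted p = 0.266). Mrpl22, of the large subunit, had 3.06, 2.58 and 2.62 against 3.69, 3.52 and 3.41 (-0.79, SE 0.20, adjusted p = 0.266), with -0.93 from its second probe. Cytosolic ribosome genes were positive for 38 of 87, with a median of -0.04, 3 higher and 5 lower without overlap. The cytosolic ribosome median turned with the arrays used, from -0.31 without climacteric pool 1 to 0.20 within slide 2. Genes of mitochondrial dynamics and autophagy were positive for 30 of 63 (median -0.05, 3 higher, 4 lower), with Tfb1m, a methyltransferase of mitochondrial ribosomal RNA, at -0.81 (SE 0.33) and Gabarapl2, of the autophagosome, at -0.58 (SE 0.21).

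Proteasome and chaperone genes were positive for 27 of 47 (median 0.11, 7 higher, 6 lower) and 38 of 61 (median 0.13, 7 higher, 5 lower). Within the proteasome the members of smallest p differed in sign. Psma5, a core subunit, had levels of 4.03, 3.72 and 4.22 in climacteric and 5.07, 4.74 and 4.72 in mature pools (-0.85, SE 0.22, limma adjusted p = 0.266), and Psmd12, of the lid, differed by -0.56 (SE 0.16). Psmd2, a scaffold of the base, had 5.28, 5.65 and 5.36 against 5.05, 4.79 and 4.48 (0.66, SE 0.23, adjusted p = 0.313). Among chaperones, Cct6a, a chaperonin subunit read by a dim probe, differed by 1.04 (SE 0.22) but by as little as 0.19 over the alternatives, Hspb11 by -0.63 (SE 0.15) and Dnaja1, an HSP70 cochaperone, by -0.57 (SE 0.16), with -0.04 from its second probe.

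Antioxidant genes were positive for 28 of 49, with a median of 0.06, 6 higher and 2 lower without overlap. Sod2, the mitochondrial superoxide dismutase, had levels of 5.03, 5.29 and 5.05 in climacteric and 4.60, 4.44 and 4.48 in mature pools (0.62, SE 0.19, limma adjusted p = 0.285). Nqo1, a quinone reductase, differed by 0.96 (SE 0.32), and Oxr1, an oxidation resistance protein, by -1.08 (SE 0.27, adjusted p = 0.266), with -4.26, -3.77 and -3.60 against -3.25, -2.69 and -2.47 and a range of -1.44 to -0.39 over the alternatives. The antioxidant genes of smallest p were thus split in direction. DNA repair genes were positive for 39 of 75, with a median of 0.01, 11 higher and 3 lower without overlap. Xrcc3, a gene of homologous recombination, had levels of 0.50, 0.62 and 0.06 in climacteric and -0.24, -0.64 and -0.73 in mature pools (0.93, SE 0.22, limma adjusted p = 0.263). The mismatch repair gene Pms1 differed by -0.60 (SE 0.20).

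Genes of maternal mRNA storage and decay were positive for 32 of 60, with a median of 0.01, 6 higher and 2 lower without overlap. The probes of single genes disagreed here: Cpsf4, of the cleavage and polyadenylation complex, gave 0.70 and -0.53, and Ago2, the slicing argonaute, gave 0.47, 0.08, -0.21 and -0.68. Nutrient-sensing genes were positive for 23 of 45, with a median of 0.00, 1 higher and 3 lower without overlap. Sirt1, a NAD-dependent deacetylase, had levels of 2.90, 3.01 and 3.20 in climacteric and 3.31, 3.44 and 3.78 in mature pools (-0.47, SE 0.20, limma adjusted p = 0.373), and Mtor differed by -0.75 (SE 0.31) with overlap. Apoptosis genes were positive for 27 of 41, with a median of 0.13, 6 higher and 3 lower. Its survival genes split, with Bcl2 at 0.70 (SE 0.21) and Bcl2l1 at 0.58 (SE 0.22) but Bcl2l2 at -1.33 (SE 0.38), which ran from -1.76 to -0.38 over the alternatives.

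**Figure D5:**
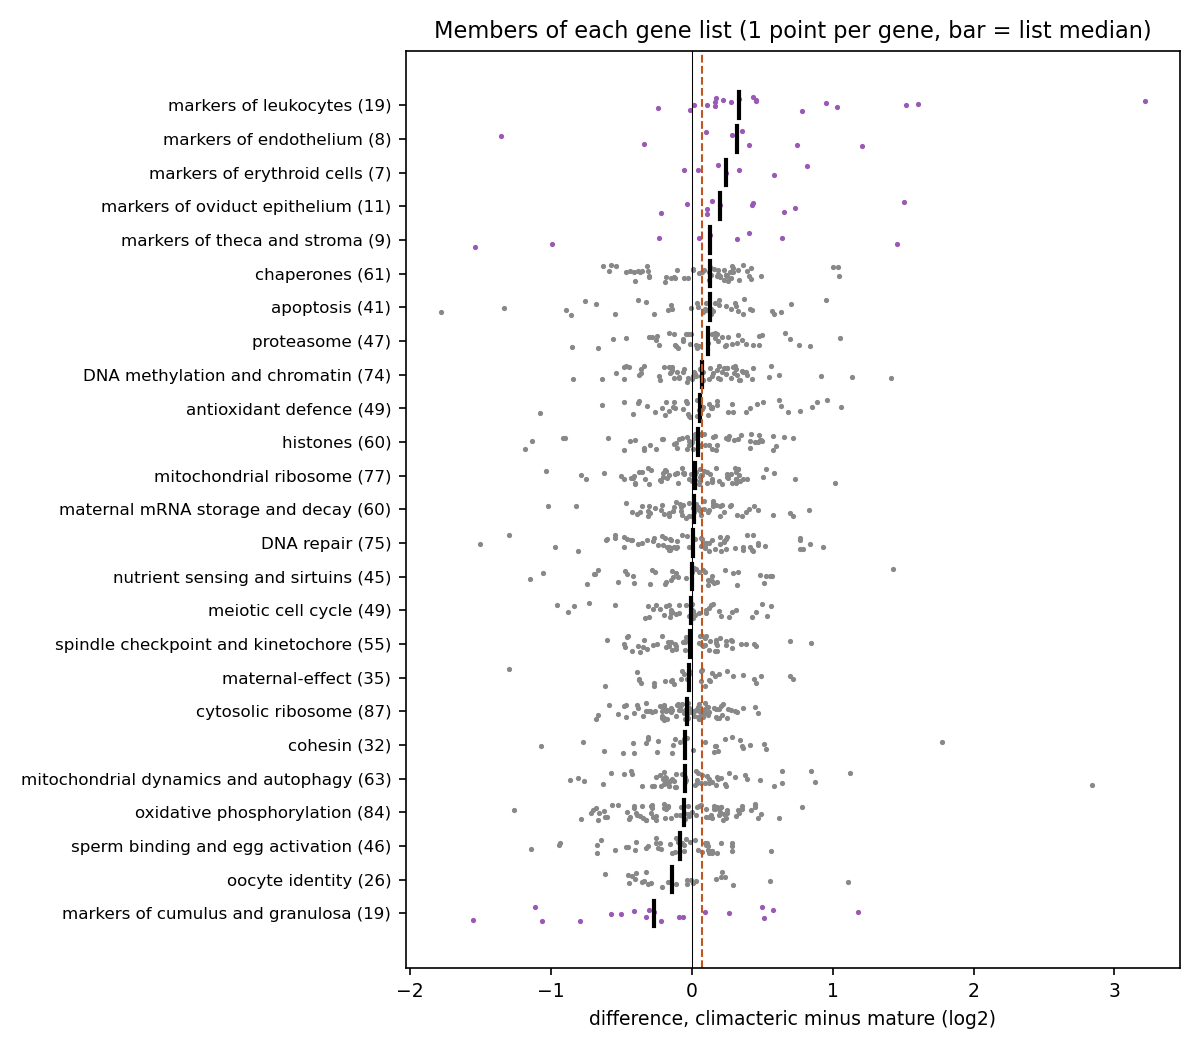
Difference between climacteric and mature oocytes (log2, horizontal axis) of each tested member of each gene list, with function lists in grey, cell type markers in purple, the list's median as a bar and the median of all named genes (0.07) as a dashed line. The list medians lie between -0.27 (cumulus and granulosa) and 0.33 (leukocytes), and members of each list fall on both sides of 0.

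Markers of the other cells that could adhere to ovulated oocytes were read beside these results. Of 19 leukocyte markers tested, 17 were positive, with a median of 0.33, 5 were higher and none lower without overlap. Of all named genes, 57.8% were positive, 12.9% higher and 6.77% lower on every climacteric array. The theca, endothelial, oviduct and erythroid lists below were mostly positive too, and the cumulus list was not. The leukocyte list's median level was -1.93 to -0.93 on the mature and climacteric arrays, and the part of signal level in its counts was not tested. Tyrobp, a signalling adaptor of myeloid cells, had levels of -4.38, -1.47 and -0.93 in climacteric and -5.67, -5.49 and -5.27 in mature pools (3.21, SE 0.88, limma adjusted p = 0.274). It was above background on only 1 mature array, so the size is uncertain, and it ran from 1.29 to 4.27 over the alternatives. Fcer1g, the common Fc receptor gamma chain, had 0.71, 1.30 and 1.07 against 0.13, 0.42 and 0.18 (0.78, SE 0.19, adjusted p = 0.266). The pool nearest to the mature ones was climacteric pool 1 for both, as for Ctss. Ptprc, the pan-leukocyte antigen CD45, differed by 0.46 (SE 0.21), the macrophage receptor gene Csf1r by -0.01 (SE 0.22) and Cd68 by 0.02 (SE 0.29). The summed level of the list was 104 to 117 in mature and 99.5 to 138 in climacteric pools, so the sums overlapped. Spots of 17 of these genes were above background on all mature arrays, and of 18 on all climacteric arrays. Their part in the differences of Ctss, Cd72 and the other genes above was not tested.

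No marker of the other lists was called either. Cumulus and granulosa markers were positive for 6 of 19, with a median of -0.27, 1 higher and none lower without overlap, and summed to 37.3 to 51.7 in mature and 34.5 to 42.2 in climacteric pools. Theca and stroma markers were positive for 6 of 9 (median 0.13, 3 higher, sums of 3.80 to 4.68 against 4.64 to 4.90). Endothelial markers were positive for 6 of 8 (median 0.32, sums of 20.9 to 21.5 against 14.7 to 21.6). Oviduct markers were positive for 9 of 11 (median 0.20, sums of 16.8 to 20.6 against 15.4 to 20.6). Erythroid markers were positive for 6 of 7 (median 0.24, sums of 3.41 to 3.85 against 3.03 to 6.60), with no gene of that list free of overlap. Many of these markers are also read in oocytes or at dim probes, so their sums give no count of other cells.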

How the data were processed

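RNA of 9 pools of 20 metaphase II oocytes was read on 1-colour Agilent arrays. Extraction used RNeasy Micro columns with no DNase step, followed by 2 rounds of amplification and Cy3 labelling of 3 µg, per the labels' protocols. The deposited scanner files give a linear intensity per spot, from Feature Extraction 9.5.1.1 per the file headers, with positions on mm9. The deposited value table holds log2 values whose normalization is not given in the sources used here. Its columns have medians of 8.03 to 8.05 and follow each array's log2 mean signal (lowest r 0.9988). Sorted, they lie within 0.0509 of the mean over arrays at every rank, so all arrays share nearly the same distribution, as quantile normalization leaves it. The table served as an alternative, and whether it was corrected for background stays unknown.

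Processed signals were taken as log2, the array's 75th percentile was subtracted, and spots flagged as outliers (0.195% to 0.621%) were left out. Symbols were found for 30577 of 39429 probes, 26686 of them by accession in RefSeq names. One mean per age was fitted to all 9 arrays with limma 3.58.1 (R 4.3.3; 6 residual and 2.45 prior degrees of freedom), tested two-sided with Benjamini-Hochberg adjustment over 29810 probes. The number of arrays limits the precision. The fit was tested on simulated data with independent noise for each probe and array. These held no effect of slide, GC content or background, so that test does not bear on those.

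Named genes were those called; the 12 largest differences each way among named genes above background on all 6 arrays, without overlap and with unadjusted p under 0.01; up to 3 of smallest p per list; a panel of oocyte genes; and the 6 largest bounds each way, passing over clone names for the largest differences and bounds. A bound sets the bright mean against the higher of the array's dimmest signal well above background and the probe's own. The genes and lists were chosen with earlier results of these data known. Alternatives covered scaling, background, filter, slide, replicate number and each array left out.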

Additional observations from a re-analysis of the deposited data

How the results depend on the processing

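The count of called probes was 1, and it was 0 in the deposited value table, with the filter at all 6 arrays (which leaves Cyth4 untested), with only the 6 arrays fitted, and within slide 2, where limma called none although 3407, 3379, 3379 and 3052 probes had an unadjusted p under 0.05. Leaving out 1 array gave 1 to 7 calls, the 7 being without climacteric replicate 1. The normexp setting called 1 probe too, Prl8a2 in place of Cyth4. Replicate numbers did not pair the arrays: deviations of same-numbered mature and climacteric arrays correlated at 0.0474, 0.048 and -0.0864. With the replicate number as a block the count was 1, Cyth4 at 4.91 (adjusted p = 0.033). The slide as a fixed block, which here equals leaving out the 2 arrays of lowest detection (an alternative chosen after seeing the data), gave 1 call, Cyth4, with an adjusted p of 0.0336. Probes above background in the climacteric age only numbered 28 to 43 without 1 mature array, against 20 with all arrays. Those in the mature age only numbered 120 to 346 without 1 climacteric array, against 87. Fewer arrays then had to be at background. Leaving out an array of the age that was above background could not change these counts. The filter on 3 of the 6 arrays already required that array. Among 102 genes under 21 alternatives, 6 of 2124 values turned sign, in 3 genes: Gdf9 (-0.090 with quantile normalization, -0.10 in the deposited table), Smc1b (0.30 without climacteric replicate 1, and -2.08 without climacteric replicate 3) and Rec8 (-0.0030 with the slide as a fixed block, within slide 2 and without the 2 arrays of lowest detection). Newly called values were those of Ctss and Mmp27 without climacteric replicate 1 and of Prl8a2 with normexp, and no list member was called in any alternative. The median difference over all probes ran from 0.02 in the deposited table to 0.17 without a filter, so small list medians depend on the scaling, and 330 of 390 list medians kept their sign. Dim probes rest on signals near background, where a difference is least certain.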
